A study of Mus musculus with 2 samples.

Results

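The genes that make cholesterol and fatty acids were followed in vaginal tissue of WT and Fbln5-/- mice after ovariectomy and estradiol treatment. The members were 22 genes of sterol synthesis and its control and 12 genes of fatty acid synthesis, chosen by name and read from the probe sets annotated to exactly 1 of them. Of these 34 genes, 33 had such a probe set (76 of the 45101 probe sets on the array). Of the 33, 32 counted as measured, meaning that 1 or both arrays reached a signal of 100, through 61 probe sets. Acat2 had no probe set of its own in the annotation, and Acacb was under 100 on both arrays.

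Total RNA came from vaginal tissue of female C57/Bl6 mice, labelled as 6 months old, that were either wild type (WT) or Fbln5-/-, which lack fibulin-5, a protein needed to assemble elastic fibers. Both groups had been ovariectomized and had received estradiol at 50 µg/kg/d for 3 d, so no untreated or intact animals stand beside them. Ovariectomy is given as at 11 d in the sample labels and at 2 weeks in the series text, while the methods count 2 weeks from ovariectomy to treatment. Each genotype was measured on 1 Affymetrix array, while the methods name 2 animals in each group. Whether a signal stands for 1 animal or for RNA pooled from both is not stated. There are thus no replicates, no test was made, and how precise any ratio is cannot be known from a single pair of arrays.

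Cholesterol is built from acetyl-CoA through mevalonate, farnesyl diphosphate, squalene and lanosterol. Fatty acids are built from the same acetyl-CoA by carboxylation, chain synthesis, elongation and the insertion of double bonds. Both pathways are controlled by the SREBP transcription factors, which are held in the endoplasmic reticulum by SCAP and INSIG proteins when sterols are plentiful and are released to the nucleus when sterols are low. SREBP-2 acts mainly on sterol genes and SREBP-1 mainly on fatty acid genes. Stratified epithelia use both pathways to supply the lipids of their barrier, and fat cells use the second one to fill their stores.

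The promoters of the sterol genes had a sequence feature in common that did not enter the choice of members. The 250 bases before the transcription start were read from RefSeq (GRCm38.p6) for the 26 members with a promoter in the table used. The 8 members without one were Fdps, Fdft1, Sqle, Stard4, Scd1, Scd2, Fads1 and Mcat. On both strands 3 motifs were searched, which can overlap one another at their ends. These were TCACNCCAC, a form of the sterol regulatory element bound by SREBPs, CCAAT, bound by NF-Y, a known partner of SREBPs, and CACGTG, the E-box. The motif CCAAT was present for 16 of 18 sterol genes (88.9%), for 4 of 8 fatty acid genes (50.0%) and for 40.0% of the 9610 measured genes with a promoter in the table. CACGTG was present for 5 of the 18 sterol genes (27.8%) and 9.93% of measured genes, and TCACNCCAC for 1 sterol gene, Hmgcs1, and 1.27% of measured genes. A gene with several listed starts was counted when any of them had the motif. A match is a description of the letters and not a measured site, and no match says only that these letters are not in this window. The sequences of 4 sterol genes are shown because they carry repeated CCAAT motifs, in capitals on either strand (ATTGG on the other), with the sterol regulatory element of Hmgcs1 also in capitals. Repeated CCAAT matches are not particular to these genes. Fasn and Elovl5 of the fatty acid pathway hold them too and are not shown. Me1 is shown because it was higher on the Fbln5-/- array, and the window shown, 1 of its 2 listed, has none of the 3 motifs. The other Me1 window holds a CCAAT match, so Me1 is among the 4 fatty acid genes counted with CCAAT. The Insig2 window is 1 of 3 listed. Hsd17b7 holds an E-box as well, left in lower case.
Hmgcs1, chr13:119690101-119690350, + strand: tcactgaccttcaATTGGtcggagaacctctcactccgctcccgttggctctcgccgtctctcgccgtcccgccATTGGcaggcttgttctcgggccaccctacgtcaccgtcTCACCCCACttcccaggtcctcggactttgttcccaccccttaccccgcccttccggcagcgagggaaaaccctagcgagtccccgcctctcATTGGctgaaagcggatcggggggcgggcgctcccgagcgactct
Mvk, chr5:114444019-114444268, + strand: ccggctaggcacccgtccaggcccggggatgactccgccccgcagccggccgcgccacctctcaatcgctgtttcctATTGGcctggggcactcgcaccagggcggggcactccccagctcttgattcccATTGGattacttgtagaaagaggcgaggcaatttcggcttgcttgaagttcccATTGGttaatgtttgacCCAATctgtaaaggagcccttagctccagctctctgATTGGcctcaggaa
Hsd17b7, chr1:169969206-169969455, - strand: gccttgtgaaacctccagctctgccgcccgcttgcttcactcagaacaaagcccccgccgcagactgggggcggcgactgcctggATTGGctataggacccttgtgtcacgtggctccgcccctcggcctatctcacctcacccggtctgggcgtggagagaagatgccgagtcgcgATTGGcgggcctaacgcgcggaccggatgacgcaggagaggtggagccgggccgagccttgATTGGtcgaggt
Insig2, chr1:121332590-121332839, - strand: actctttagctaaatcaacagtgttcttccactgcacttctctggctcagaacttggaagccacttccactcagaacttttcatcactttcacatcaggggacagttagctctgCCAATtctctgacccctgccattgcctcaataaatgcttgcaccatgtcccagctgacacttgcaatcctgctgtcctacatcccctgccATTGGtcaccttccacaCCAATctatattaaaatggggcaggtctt
Me1, chr9:86695915-86696164, - strand: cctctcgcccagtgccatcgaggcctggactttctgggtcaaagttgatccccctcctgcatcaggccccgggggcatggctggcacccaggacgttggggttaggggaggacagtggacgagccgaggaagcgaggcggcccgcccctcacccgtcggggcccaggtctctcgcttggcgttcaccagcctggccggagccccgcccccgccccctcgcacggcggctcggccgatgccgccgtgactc

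Signals are MAS5 intensities on a linear scale, scaled here to a common median, and a ratio is the Fbln5-/- signal over the WT signal. A gene was read at its brightest probe set, and a difference of at least 2-fold was counted as higher or lower. A signal under 100 on 1 array gives a bound, computed against 100, and no fold is given where both arrays were under it. Over all 11934 measured genes, 861 (7.21%) had a Fbln5-/- signal at least 2-fold above that of WT and 569 (4.77%) at least 2-fold below it, and 69.6% lay within 1.5-fold. When the arrays were instead scaled so that probe sets reaching 100 on each had a median ratio of 1, these counts became 679 and 698. The median log2 ratio of all measured genes was 0.16 (0.05 under that scaling). The deleted gene itself, Fbln5, read 410.4 on the WT array and 30.4 in the knockout, a difference of at least 4.10-fold. A second Fbln5 probe set was too low on both arrays for a fold. The tissue markers were present on both arrays: 8 of 9 measured keratin and other stratified epithelium genes and 4 of 6 smooth muscle genes were within 1.5-fold. The control probe sets along Gapdh had log2 ratios of 0.05 at the 3′ end, −1.16 in the middle and −4.44 at the 5′ end, and those along Actb −0.18, −1.22 and −1.87.

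The sterol pathway was close to level between the genotypes. In whole tissue, a difference in the number of cells of a type and one in RNA per cell cannot be told apart. Of 21 measured genes, 0 were higher by 2-fold or more in Fbln5-/-, 1 was lower by that much (Fdps, against 4.77% of all measured genes) and 17 lay within 1.5-fold (81.0%, against 69.6% of all measured genes). The sterol genes were mostly bright: 20 of them had a mean signal of at least 1000, and 17 of these 20 lay within 1.5-fold (85.0%), against 76.7% of the 4788 measured genes that bright. Of those 4788 genes, 4.72% were at least 2-fold higher and 3.15% at least 2-fold lower, beside 0 and 1 of the 20. The median log2 ratio was 0.12, beside 0.16 for all measured genes. It turned to −0.0062 when all probe sets of a gene were averaged (0.087 for all measured genes). Without _x_at, _s_at and _a_at probe sets, whose probes can match related transcripts, it was −0.064 (0.16 for all measured genes). Probe set by probe set, with signals under 100 set to 100, 0 of 39 were at least 2-fold higher (4.74% of all probe sets with 1 gene past the limit) and 3 were at least 2-fold lower (6.39% of all). With signals as measured, 0 and 4 were counted, against 6.29% and 8.65% of all.

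**Figure D1:**
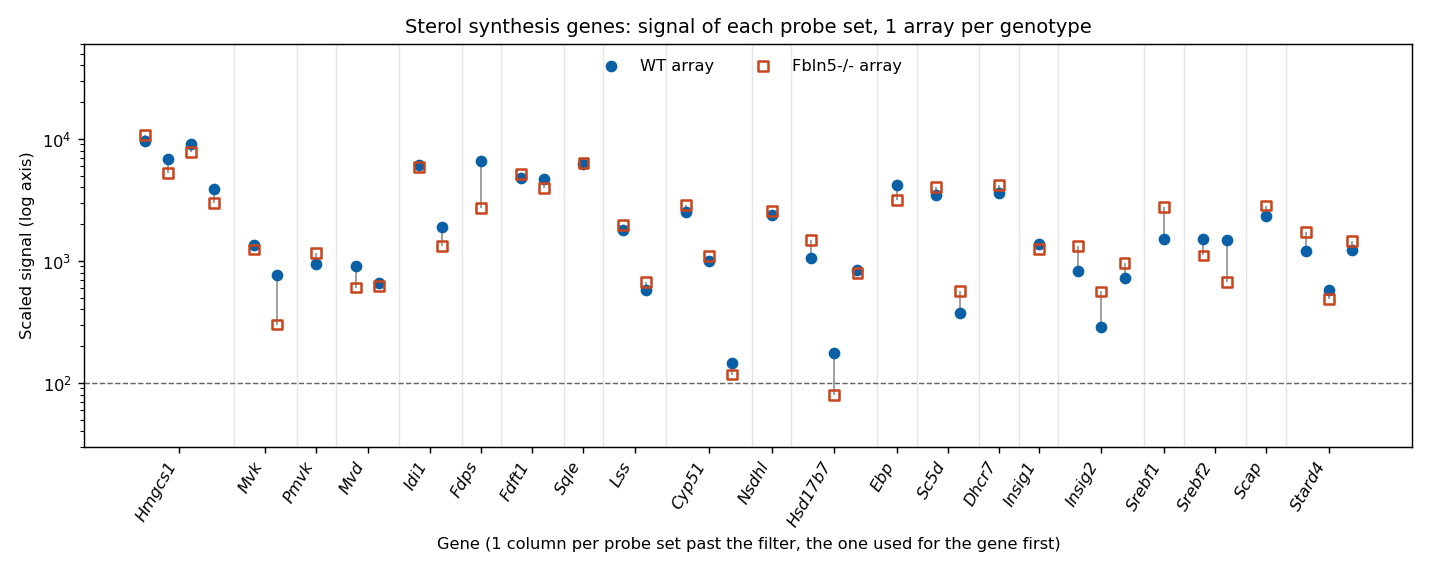
Signal after scaling, on a log axis, of every probe set past the limit of 100 (dashed line) for 21 sterol synthesis genes, in pathway order from left to right, with the WT array as filled circles and the Fbln5-/- array as open squares, 1 array each. Most pairs nearly meet, as for Sqle (6270 and 6377), while Fdps lies at 6597 and 2697 and Srebf1 lies at 1511 and 2767.

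The first steps make isopentenyl units from acetyl-CoA. Hmgcs1, the cytosolic HMG-CoA synthase, read 9618 in WT and 10693 in Fbln5-/- at its brightest probe set (log2 ratio 0.15), while its other 3 measured probe sets had log2 ratios from −0.38 to −0.22. The sign for Hmgcs1 therefore depended on the probe set, all within 1.5-fold. Mvk, mevalonate kinase, had signals of 1359 and 1240 (log2 ratio −0.13), but its second probe set had 768.3 and 300.7, 2.56-fold lower. Pmvk, phosphomevalonate kinase, had 940.2 and 1153 (log2 ratio 0.29). Mvd, the decarboxylase that follows, had 909.5 and 604.2 (log2 ratio −0.59) and at its second probe set 656.2 and 624.7 (log2 ratio −0.07). Both probe sets of Idi1, which isomerizes the isopentenyl unit, were lower on the Fbln5-/- array by less than 2-fold, with 6162 and 5893 at the brighter (−0.06 as a log2 ratio) and 1897 and 1327 at the dimmer (−0.52). Of the 5 measured genes of this section, 2 had a log2 ratio above 0 and 3 below it.

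Farnesyl diphosphate, a branch point toward sterols and prenylated proteins, is made by Fdps. This was the 1 sterol gene at least 2-fold lower, reading 6597 in WT and 2697 in Fbln5-/- (2.45-fold, log2 ratio −1.29), and 97.2% of measured genes had a higher ratio. The other Fdps probe set read 1.26 and 1.65, so the difference rests on 1 probe set. The next enzymes were level. Fdft1, squalene synthase, had 4782 and 5132 at the brighter of its probe sets (log2 ratio 0.10), with 4676 and 3973 at its second (−0.23). Sqle, squalene epoxidase, a rate-controlling step of the pathway, had 6270 and 6377 (log2 ratio 0.02).

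All 7 enzymes from squalene epoxide to cholesterol that were listed lay within 1.5-fold at their brightest probe sets, with a median log2 ratio of 0.17. This range held 69.6% of all measured genes and 76.7% of those with a mean signal of at least 1000. Lss, lanosterol synthase, read 1800 in WT and 1958 in Fbln5-/-, and Cyp51, the lanosterol 14-alpha demethylase, had 2535 and 2851. Cyp51 was split in sign, with log2 ratios of 0.17 and 0.14 at its brighter probe sets and −0.32 at the dimmest (146.6 and 117.0). Nsdhl, a sterol C4 decarboxylase, had 2382 and 2577. At their brightest probe sets, the arrays thus gave nearly the same signal for Lss, Cyp51 and Nsdhl. Sc5d, the lathosterol desaturase, had 3462 and 4046, with 376.0 and 562.0 at its second probe set (log2 ratio 0.58), and Dhcr7, which makes cholesterol from 7-dehydrocholesterol, had 3624 and 4168. Ebp, the sterol isomerase, was the 1 gene of this section with a ratio below 1, with 4224 and 3161 (log2 ratio −0.42). Hsd17b7, a sterol 3-ketoreductase, was split between its probe sets. It had 1063 and 1484 at the brightest (log2 ratio 0.48), 839.7 and 793.6 at the second (−0.08), and 174.8 and 79.2 at the third, at least 1.75-fold lower.

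The log2 ratios of the 6 regulators and carriers ran from −0.44 to 0.87, and Srebf1 and Srebf2 pointed opposite ways. Srebf1, which encodes SREBP-1, read 1511 in WT and 2767 in Fbln5-/- (log2 ratio 0.87, 1.83-fold, 1 probe set), and 9.61% of measured genes had a higher ratio. Srebf2, which encodes SREBP-2, had 1502 and 1108 at the brighter of its probe sets (log2 ratio −0.44), with 1469 and 669.1 at its second (2.20-fold lower). Both Srebf2 probe sets were therefore lower on the Fbln5-/- array, by different amounts. Insig2, an endoplasmic reticulum anchor of SCAP, was higher at all 3 of its probe sets, with 818.5 and 1334 at the brightest, 717.8 and 955.6 at the second and 288.2 and 561.4 at the third (log2 ratios 0.70, 0.41 and 0.96). Insig1, the second anchor and itself a target of SREBPs, had 1386 and 1258 (log2 ratio −0.14). Scap, the escort protein, had 2346 and 2843 (log2 ratio 0.28). Stard4, a cytosolic sterol carrier, was split, with 1194 and 1724, 1218 and 1462, and 573.4 and 483.5 at its 3 probe sets (log2 ratios 0.53, 0.26 and −0.25). None of these 6 genes passed 2-fold at its brightest probe set, while 7.21% of all measured genes were that much higher and 4.77% that much lower.

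**Figure D2:**
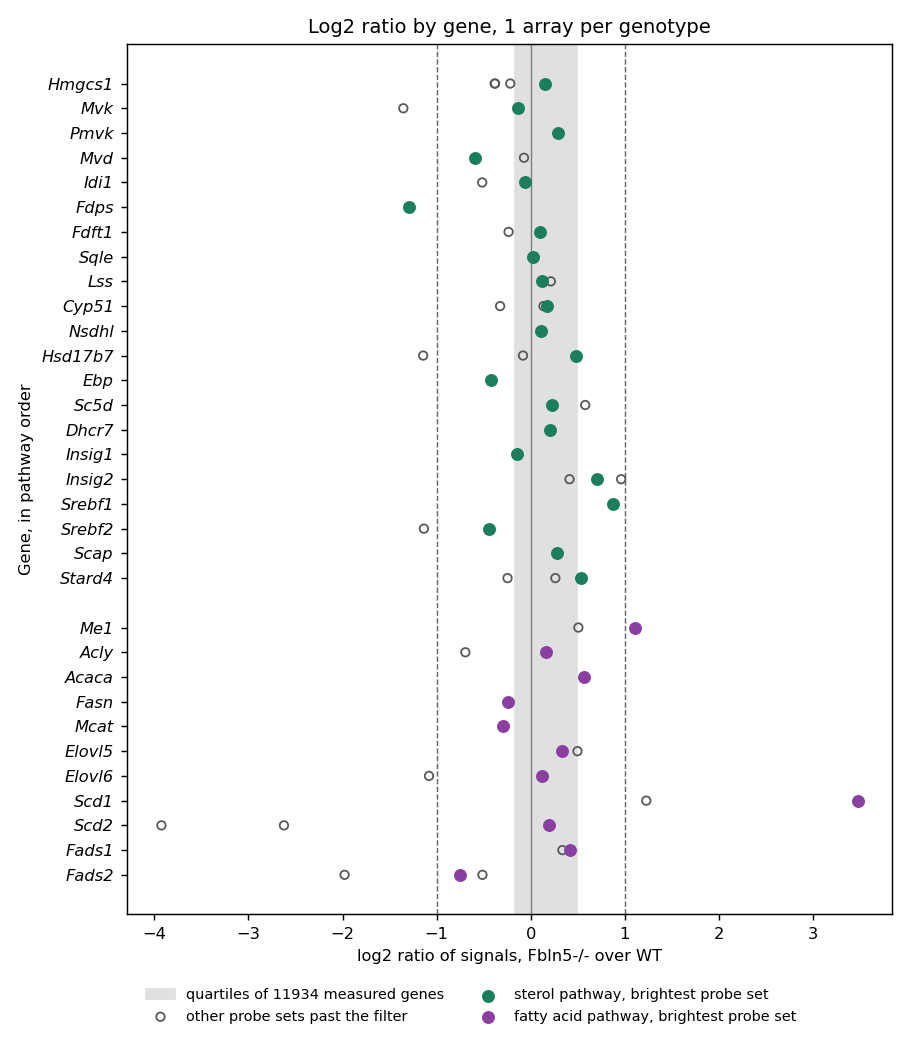
Log2 ratio of signals (Fbln5-/- over WT, 1 array each, all ratios as measured) for 21 sterol genes (green) and 11 fatty acid genes (purple) at the brightest probe set, with other probe sets past the limit as open circles. The gray band spans the quartiles of all measured genes (−0.17 to 0.50) and dashed lines mark 2-fold. Scd1 (3.48), Me1 (1.11) and Fdps (−1.29) lie outside the lines, and the open circles at −3.92 and −2.62 are Scd2.

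The fatty acid pathway held the gene with the largest ratio among the members, Scd1, while Fdps of the sterol pathway came next in size. Of 11 measured genes, 2 were higher by 2-fold or more in Fbln5-/-, Scd1 and Me1 (against 7.21% of all measured genes), and 0 were lower by that much (against 4.77%). Within 1.5-fold lay 8 of the 11 (72.7%, against 69.6% of all measured genes). The median log2 ratio was 0.20. It turned to −0.12 when all probe sets of a gene were averaged, and Me1 was then under 2-fold while Scd2 and Fads2 were at least 2-fold lower. Of 22 probe sets, 3 were at least 2-fold higher and 4 at least 2-fold lower, both with signals as measured (against 6.29% and 8.65% of all probe sets) and with signals under 100 set to 100 (against 4.74% and 6.39%).

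Scd1, the stearoyl-CoA desaturase that makes monounsaturated fatty acids and is abundant in fat, sebaceous glands and liver, read 939.0 in WT and 10444 in Fbln5-/-, 11.1-fold higher (log2 ratio 3.48). A higher ratio was found for 0.478% of measured genes. Its second probe set had 117.5 and 275.4, 2.34-fold higher, so both went the same way and differed in size. Scd2, a close relative that lies near Scd1 on chromosome 19 with 1 coding gene between them and is expressed in many tissues, gave 3 different readings. Its brightest probe set had 13267 and 15212 (log2 ratio 0.20), the second had 7194 and 473.7 (15.2-fold lower), and the third had 614.8 and 99.8 (at least 6.15-fold lower). Scd1 was thus higher at both probe sets, and the direction for Scd2 depended on the probe set. Scd3, a relative known from skin, was under 100 on both arrays.

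**Figure D3:**
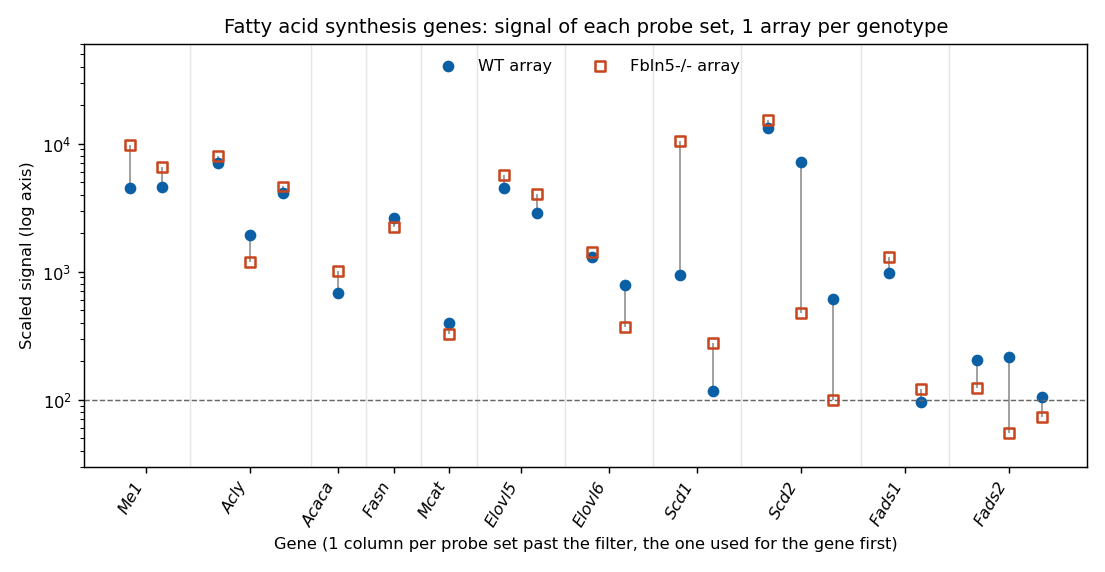
Signal after scaling, on a log axis, of every probe set past the limit of 100 (dashed line) for 11 fatty acid synthesis genes, with the WT array as filled circles and the Fbln5-/- array as open squares, 1 array each. Scd1 is higher on the Fbln5-/- array at both probe sets (939.0 and 10444 at the brighter), and Scd2 is level at its first probe set and lower at the other two.

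Me1, the cytosolic malic enzyme that supplies NADPH for fatty acid synthesis, read 4501 in WT and 9689 in Fbln5-/- at its brighter probe set (2.15-fold, log2 ratio 1.11) and 4606 and 6545 at the other (1.42-fold). The enzymes that build the chain did not share this difference in size. Acly, which makes cytosolic acetyl-CoA from citrate, had 7100 and 7978 (log2 ratio 0.17), 4103 and 4625 (0.17), and 1917 and 1185 (−0.69) at its 3 measured probe sets. Acaca, the cytosolic acetyl-CoA carboxylase, had 683.2 and 1011 (log2 ratio 0.57). Fasn, fatty acid synthase, had 2644 and 2236 (log2 ratio −0.24). Fasn and Acaca, which act one after the other, thus lay on opposite sides of 0, each within 1.5-fold and each with 1 measured probe set. Acacb, the mitochondrial isoform, had 28.1 and 81.2 at its brighter probe set, too low for a fold. Mcat, the malonyl transferase of the separate mitochondrial pathway, had 397.1 and 323.9 (log2 ratio −0.29).

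The elongase Elovl5 was higher at both probe sets by less than 2-fold, with 4520 and 5674 at the brighter (log2 ratio 0.33) and 2882 and 4068 at the dimmer (0.50). Elovl6, which extends palmitate to stearate, had 1311 and 1427 at the brighter of its probe sets (log2 ratio 0.12), with 782.6 and 370.0 at its second, 2.12-fold lower. The neighbouring genes Fads1 and Fads2 encode the delta-5 and delta-6 desaturases of polyunsaturated fatty acids. Fads1 had 975.9 and 1305 (log2 ratio 0.42), and its second probe set had 95.4 and 120.5, at least 1.21-fold higher. Fads2 had 205.9 and 122.7 at its brightest probe set (log2 ratio −0.75), 217.2 and 55.1 at the second (at least 2.17-fold lower) and 105.0 and 73.6 at the third (at least 1.05-fold lower). All measured probe sets of Fads1 were thus higher and all of Fads2 lower on the Fbln5-/- array, with Fads2 near the limit of 100.

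Agreement between probe sets differed by member. Of 20 members with several measured probe sets, 12 had all ratios on the same side of 0, and 12 further members were read at 1 probe set. The pooled SD of the log2 ratio between probe sets of a gene was 0.78 over the 18 members with several probe sets reaching 100 on each array and 0.52 over 4114 such genes. Of the 7 probe sets of members at least 2-fold lower with signals under 100 set to 100, those of Mvk, Srebf2, Elovl6 and Scd2 stand beside a brighter probe set of the same gene within 1.5-fold. The 5′ control of Gapdh was 21.7-fold lower on the same array, and where the members' probe sets lie along their transcripts is not given in the sources used here. The part of the 5′ signal in these differences was not tested.

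Other genes of sterol handling were counted in the same way. Of 5 other sterol synthesis genes measured, all lay within 1.5-fold (against 69.6% of all measured genes), with a median log2 ratio of 0.12. Msmo1, the sterol C4 methyl oxidase, had signals of 7245 and 6222 (log2 ratio −0.22), and Erg28, a scaffold of the C4 demethylation complex, had 2958 and 2185 (−0.44). Of 12 genes of sterol efflux, esterification and uptake, 1 was at least 2-fold higher and 1 at least 2-fold lower, close to what the shares of all measured genes (7.21% and 4.77%) would give. The higher was Abca1, the cholesterol exporter, with 1837 and 3782 (log2 ratio 1.04), and the lower was Apoe, with 4877 and 1890 (−1.37), each with 1 measured probe set. Abcg1, a second exporter, had log2 ratios of 0.64 and 0.03 at its probe sets.

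Of 15 other fatty acid synthesis genes measured, 2 were at least 2-fold higher and 2 at least 2-fold lower (against 7.21% and 4.77% of all measured genes), and the median log2 ratio was 0.44 (0.33 with signals under 100 set to 100). Thrsp, a lipogenic protein of fat and liver, had signals of 29.8 and 1140 at its brightest probe set, at least 11.4-fold higher. Its second measured probe set had 25.5 and 165.7, at least 1.66-fold higher. Pnpla3, a lipid droplet protein, had 104.4 and 483.7 (log2 ratio 2.21). Elovl7, an elongase of saturated fatty acids, had 806.1 and 1590 (0.98). The 2 lower genes were Slc25a1, the mitochondrial citrate carrier (3228 and 1365, log2 ratio −1.24), and Fads3 (771.9 and 334.1, log2 ratio −1.21), whose second measured probe set had a log2 ratio of 0.37. Of 11 genes of fatty acid activation and triacylglycerol synthesis, 1 was higher and 1 lower by that much, again near those shares. Lpin2, a phosphatidate phosphatase, was the higher (472.2 and 1425, log2 ratio 1.59) and Dgat1, an acyltransferase of triacylglycerol synthesis, the lower (794.6 and 322.2, −1.30). All 3 measured Lpin2 probe sets were higher. Lpin1, of the same family, had 150.5 and 296.3 (0.98).

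Most measured markers of fat cells were higher on the Fbln5-/- array. Of 17 adipocyte markers listed, 14 were in the annotation and 11 were measured. Of these 11, 8 were higher by 2-fold or more in Fbln5-/- (against 7.21% of all measured genes). With signals under 100 set to 100, 7 were (against 5.80%). None was 2-fold lower at its brightest probe set, and the median log2 ratio was 1.60 (1.53 with that floor). Ucp1, Retn, Cidea and Lipe were under 100 on the WT array, so they counted as measured only through the Fbln5-/- array. The summed signal of the 14 annotated markers was 4308 on the WT array and 14422 on the other, 3.35-fold higher. Adipoq, the fat cell hormone adiponectin, had 104.1 and 1131, Lpl, lipoprotein lipase, 644.5 and 3740, and Fabp4, a fatty acid carrier, 1980 and 5703. Ucp1, of brown fat, was at least 6.96-fold higher, and Retn, which encodes resistin, at least 4.49-fold. In contrast, Slc2a4 had a log2 ratio of −0.17, and its second probe set had 188.9 and 10.3, at least 1.89-fold lower. Cidec, Pparg and Lep were under 100 on both arrays. The part of fat cells in the signals of Scd1, Me1 and Srebf1 was not tested. Of 6 sebaceous or clitoral gland markers in the annotation (9 listed), 5 were under 100 on both arrays and Mgst1 had 2120 and 4601 (log2 ratio 1.12). The summed signal of 9 stratified epithelium markers was 108318 and 121178, and that of 6 smooth muscle markers 34739 and 34056. These sums rest mostly on the brightest genes. Of the 9 epithelial genes 8 had a log2 ratio above 0, and Ivl was 2.57-fold higher (520.9 and 1341). Of the 6 muscle genes 2 were above 0 and 4 below it, with a median of −0.29. Cnn1, Des and Smtn were 1.47-, 1.55- and 1.52-fold lower.

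**Figure D4:**
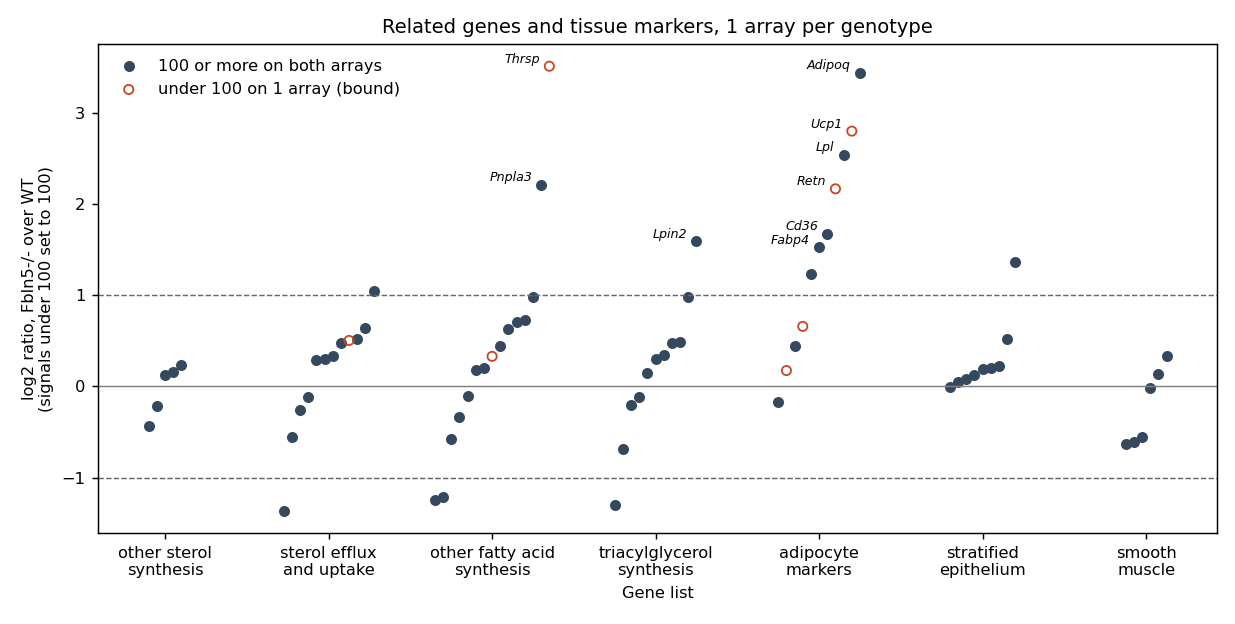
Log2 ratio (Fbln5-/- over WT, 1 array each, signals under 100 set to 100) of measured genes in lists related to the 2 pathways and of tissue markers; open circles are bounds for genes under 100 on 1 array, and dashed lines mark 2-fold. The 5 other sterol synthesis genes lie near 0. Thrsp (at least 11.4-fold at its brightest probe set) and the adipocyte markers Adipoq (log2 ratio 3.44), Ucp1 (at least 6.96-fold) and Lpl (2.54) lie well above the 2-fold line.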

How the data were processed

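The authors deposited MAS5 signal intensities on a linear scale for 45101 probe sets of an Affymetrix mouse expression array, 1 array for WT and 1 for Fbln5-/- (the submitters' processing notes name MAS5, with no version in the sources used here). After trimming 2% at each end their mean was 500.0 on either array, so they carry a scaling per array, and 54.8% and 55.9% of intensities were under 100. Here they were scaled to a common median (factors 0.972 and 1.03), after the 50th percentile normalization of the methods, and a WT signal of 0 was set to 0.1. Detection calls were not used. Gene names came from the platform annotation (34958 with 1 gene, 932 with several, 9211 with none). With 1 array per genotype no test was made. Members, lists and the rule for named genes (every member, and in each other list up to 4 genes with the largest ratios at 100 or more on both arrays and up to 2 under 100 on 1 and at least 300 on the other) were chosen with earlier results of these data known. Not every gene that this rule selects is given in the text. Those left out include Scarb1, Agpat2, Cd36, Cd163, Mrc1, Pecam1 and Tek. Values of further genes outside this rule are given for Slc2a4, Cidec, Cidea, Lipe, Pparg, Lep and Scd3, chosen after their values were seen. The liver list had 7 of 8 genes under 100 on both arrays and Cyp2e1 at least 6.67-fold higher. Of 6 macrophage markers 2 were at least 2-fold higher and of 5 endothelium markers none was, against 7.21% of all measured genes. None of either list was at least 2-fold lower, against 4.77%. The steps were tested on simulated data in which all probe sets of a gene shared the planted difference, with little noise. Those data held neither the spread between probe sets nor the 5′ differences seen here, so the test does not cover them. Python 3.11.15, numpy 2.4.6, pandas 2.3.3 and matplotlib 3.10.9 were used.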

Additional observations from a re-analysis of the deposited data

How the results depend on the processing

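The alternatives were 3 other scalings and the deposited scale, other filters and floors, other rules for the probe set of a gene, and other fold thresholds. No paired analysis was possible because each genotype had 1 array. The sterol median log2 ratio (0.12) moved to 0.016 with the median ratio of bright probe sets set to 1, to −0.0062 with the mean over probe sets and to −0.064 without _x_at, _s_at and _a_at probe sets. The fatty acid median (0.20) moved to 0.078 with quantile normalization, to 0.092 with the median ratio set to 1 and to −0.12 with the mean over probe sets. The cause was not tested. The count of 0 sterol genes at least 2-fold higher and 1 lower became 2 and 2 at 1.5-fold, and 0 were lower at 3-fold. The count of 2 fatty acid genes higher and 0 lower became 1 and 2 with the mean over probe sets, 1 and 1 with the median over probe sets, 1 higher at 3-fold and 1 lower at 1.5-fold. Over all 11934 measured genes, 861 were higher and 569 lower as given. These counts were 779 and 835 with the mean, and 782 and 786 with the median. Without a filter, which adds Acacb, 3 of 12 were higher, beside 2048 of all 18193 genes. Medians that moved by at most 0.1 were counted as unmoved. Of 382 values of single members under the alternatives, 367 differed from the value given by less than the pooled SD between probe sets and stayed on the same side of 2-fold. This count is not a test of robustness. The filters, floors and scalings leave most single ratios nearly as they were. A member with 1 measured probe set cannot change when probe sets are averaged. The larger changes came with the rules for the probe set, as for Scd2 (−2.12 with the mean and −2.62 with the median). Acacb and Scd3 were under the limit of 100 on both arrays and 2 of 3 Fads2 probe sets on 1, which bounds what can be said of them. Counts of probe sets with signals under 100 set to 100 were chosen after seeing the data.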
